A study of Mus musculus with 6 samples.

Results

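*Opn4*, *Eomes*, *Tbx20*, *Adcyap1*, *Trpc6*, *Trpc7*, *Plcb4* and *Rasgrp1* are genes known for intrinsically photosensitive retinal ganglion cells (ipRGCs). Whether their transcripts in these libraries came only from ipRGCs was not tested. These 8 genes, of 43346 in the count tables, were named by symbol as a set known for ipRGCs, with earlier results of these data known, and no threshold on values was used. All 8 had enough counts to be tested, among 15747 genes tested in all.

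ipRGCs are the retinal ganglion cells (RGCs) that respond to light by themselves, through the photopigment melanopsin, and they set the body clock and the pupil reflex. Light-activated melanopsin signals through a Gq protein to phospholipase C beta 4, which opens the channels TRPC6 and TRPC7. The T-box factors Eomes and Tbx20 are expressed in ipRGCs, where Eomes is needed for their formation and upkeep, and the cells release the neuropeptide PACAP, the product of *Adcyap1*.

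RNA was sequenced from cultured mouse RGCs, purified by immunopanning on CD90.1, a surface antigen of RGCs, and transduced with an adeno-associated virus (AAV). The 3 groups had 2 replicates each and received a control AAV expressing EGFP, an AAV for Sox11 with EGFP, or an AAV for Sox11 K91A with EGFP. Sox11 is a transcription factor of the SOX family, and in Sox11 K91A the lysine that carries the small modifier SUMO is replaced by alanine. All groups shared the medium with forskolin, BDNF and CNTF, 250000 cells per well, 1.5 μl of AAV at 4 h after plating (100000 vector genomes per cell) and harvest of RNA at 72 h. All 6 libraries are thus from transduced cells, and the 4 that received Sox11 or Sox11 K91A are called the Sox11-virus libraries. The age of the animals is given as embryonic day 18 for the sequenced cells and as postnatal day 2 for the culture protocol. Nothing states that the replicates came from separate cultures or animals, so p-values measure only the spread between these libraries, which may be technical. The control replicates and the Sox11 replicates did differ in sex-linked genes, as given with the depths. In bulk RNA, fewer cells of a type and less RNA per cell cannot be told apart.

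Libraries held between 27521982 and 37061718 counts. *Sox11* was at 234 and 332 CPM (counts scaled by library size) in the control libraries, at 9178 and 14590 with Sox11, and at 11970 and 7026 with Sox11 K91A. All 9 RGC markers checked were expressed, and *Rbpms*, the pan-RGC marker, lay between 193.5 and 242 CPM in all 6 libraries. Control replicate 2 and Sox11 replicate 2 separated from the remaining 4 libraries along the second principal component, which held 18.2% of the variance. These 2 libraries had less *Xist* than the other 4 (95.9 and 253.8 CPM against 400.4 to 526 CPM) and more of the Y-linked gene *Eif2s3y* (25.1 and 33.9 CPM against 7.66 to 12.6 CPM). For *Opn4*, *Eomes*, *Tbx20*, *Adcyap1* and *Rasgrp1*, and for *Trpc6* with Sox11 K91A, the value without both of them is given beside the result.

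The sequences before the start sites are shown for *Opn4* and *Adcyap1*, because these were the members that fell with both viruses. Each is the window of 250 bases upstream of a RefSeq start on build GRCm38.p6, written 5′ to 3′ on the gene's strand, with motif matches in capitals. The motifs searched on both strands were the SOX motifs ACAAAG and ACAATG and the T-box motif AGGTGT. No match on one motif overlapped a match on another.
Opn4, chr14:34600143-34600392, minus strand: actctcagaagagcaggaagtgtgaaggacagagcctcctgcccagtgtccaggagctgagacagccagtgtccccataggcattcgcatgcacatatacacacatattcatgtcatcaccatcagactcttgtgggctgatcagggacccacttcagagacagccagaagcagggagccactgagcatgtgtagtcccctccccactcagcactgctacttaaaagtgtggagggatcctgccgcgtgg
Adcyap1, upstream start, chr17:93198767-93199016, plus strand: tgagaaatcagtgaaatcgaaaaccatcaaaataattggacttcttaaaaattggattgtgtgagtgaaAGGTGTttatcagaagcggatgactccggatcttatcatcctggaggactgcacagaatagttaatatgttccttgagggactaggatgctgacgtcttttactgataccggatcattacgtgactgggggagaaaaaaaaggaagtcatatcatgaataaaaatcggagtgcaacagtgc
The *Opn4* window held none of the 3 motifs. The *Adcyap1* window held AGGTGT once, at -181 from the start. A second RefSeq start of *Adcyap1* lies downstream, and its window (chr17:93198918-93199167) held ACAAAG at -113 followed directly by AGGTGT at -107. That window runs into the transcript of the upstream start and is not printed. None of the windows of the other 6 members held a match. Of all 32851 windows of this length, 16.5% held ACAAAG, 10.7% held ACAATG, 11.8% held AGGTGT and 34.1% held at least 1 of them, and a match here describes letters only.

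Compared per transcript length, in TPM, *Adcyap1* was the most abundant of the 8 genes in the control libraries, at 440.2 and 354.2 TPM. *Plcb4* followed at 76.3 and 68.6 TPM. *Eomes* (10.5 and 27.2 TPM) and *Rasgrp1* (24.5 and 6.91 TPM) overlapped, and *Rasgrp1* overlapped with *Opn4* (4.02 and 7.01 TPM) as well. *Trpc6*, *Trpc7* and *Tbx20* were lowest, each between 0.66 and 1.51 TPM, and did not separate from each other. In the 4 Sox11-virus libraries *Opn4* ranked 7 and *Trpc6* 8 among the 8 genes. *Plcb4* then ranked 1 in all of them except Sox11 K91A replicate 2, where *Adcyap1* (62.4 TPM) and *Plcb4* (61.6 TPM) were nearly level.

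*Opn4* and *Adcyap1* fell with both viruses, and the other 6 genes did not pass the test in either comparison. Calls are from limma-voom over all genes tested, with thresholds of 0.05 on the FDR and 1.2 on the absolute fold change. With Sox11, 2 of 8 members were called lower and 0 higher, where 20.1% of all genes tested were called, 10.2% lower and 9.96% higher. With Sox11 K91A, 2 of 8 were called lower and 0 higher, where 10.6% of all genes were called, 4.81% lower and 5.81% higher. The member count with Sox11 lies near the share called among all genes, so what follows rests on the values of single genes. The median log2 fold change of the 8 genes was -1.36 with Sox11 and -1.11 with Sox11 K91A, beside 0.009 and 0.017 over all genes tested. Both comparisons use the same control libraries and are not independent of each other.

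**Figure D1:**
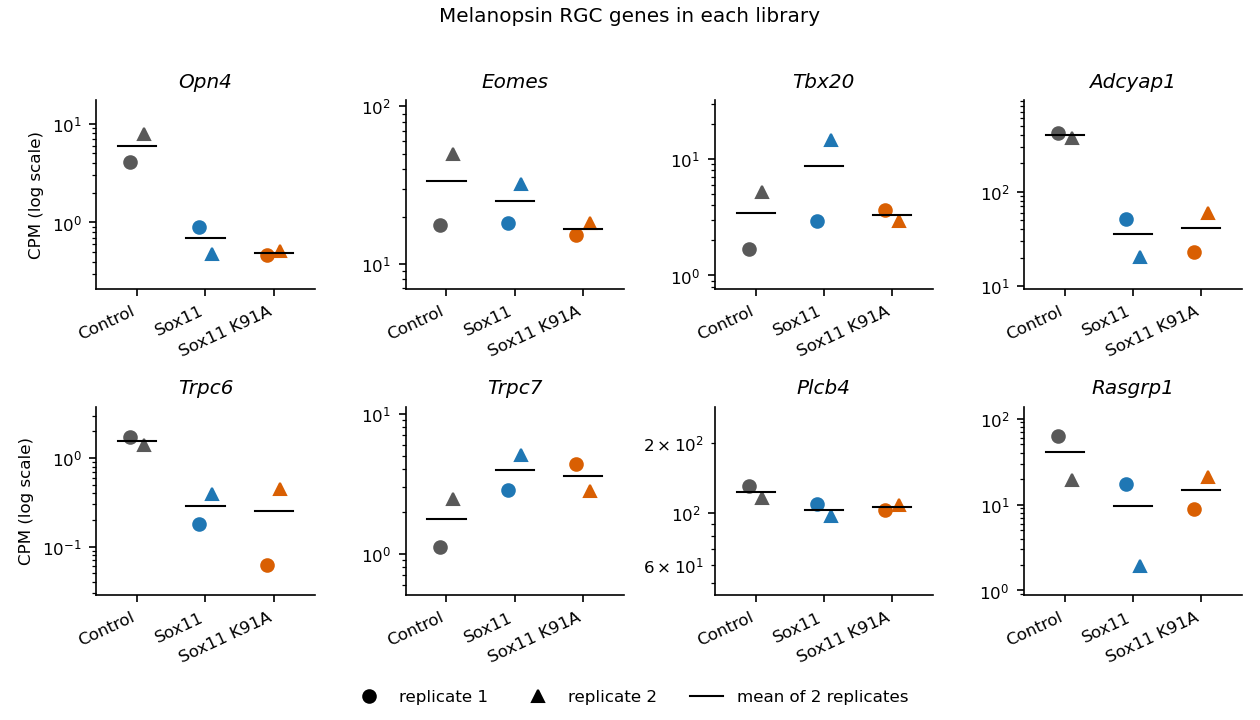
Expression of the 8 genes in each of the 6 libraries, in CPM on a log axis, with circles for replicate 1, triangles for replicate 2 and a line for the mean of 2 replicates. *Opn4*, *Adcyap1* and *Trpc6* lie below both control libraries in all 4 Sox11-virus libraries, while *Eomes* overlaps between control and both viruses.

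*Opn4* encodes melanopsin, the photopigment, and is annotated on GRCm38 at chromosome 14, 34590618 to 34600142, minus strand (ENSMUSG00000021799). It had 114 and 302 counts in the control libraries, 25 and 16 with Sox11, and 15 and 15 with Sox11 K91A. Scaled for depth these are 4.08 and 7.84 CPM in control, 0.91 and 0.483 CPM with Sox11, and 0.466 and 0.514 CPM with Sox11 K91A. All Sox11-virus libraries lay below both control libraries. The gene was 8.82-fold lower with Sox11 (95% confidence interval 3.36 to 23.2), a log2 fold change of -3.14 (standard error 0.59, adjusted p = 0.0184). With Sox11 K91A it was 11.6-fold lower (95% confidence interval 4.1 to 33.1), a log2 fold change of -3.54 (standard error 0.64, adjusted p = 0.0251). Among all genes tested, 1.49% had as low or lower a log2 fold change with Sox11, and 0.349% with Sox11 K91A. Both calls were lost when certain single libraries were left out. Without Sox11 replicate 2 the *Opn4* log2 fold change with Sox11 was -2.65 (adjusted p = 0.134), in a fit that called 0 genes of all tested, although 3347 had an unadjusted p under 0.05. The call with Sox11 K91A was lost without control replicate 2 (-3.02, adjusted p = 0.058), Sox11 K91A replicate 1 (-3.46, adjusted p = 0.26) or Sox11 K91A replicate 2 (-3.61, adjusted p = 0.112), in fits that called 0, 19 and 319 genes. Without both control replicate 2 and Sox11 replicate 2, *Opn4* was at -2.14 with Sox11 and -3.02 with Sox11 K91A. That fit kept 1 control and 1 Sox11 library, so no p-value is given for it. An antisense gene, *Gm49012*, covers 130 of the 2961 exon bases of *Opn4* and has no entry in the tables, and whether counting used strand is not given in the sources used here.

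The other opsins did not pass the test. *Opn3*, encephalopsin, was at 36.7 and 18 CPM in control and between 19.9 and 21.3 CPM in the Sox11-virus libraries, and *Opn5*, neuropsin, lay between 0.664 and 4.88 CPM throughout. The remaining 5 of 7 opsin genes listed, including the rod and cone pigments, had too few counts to be tested.

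*Eomes* and *Tbx20*, the T-box transcription factors, did not pass the test with either virus. *Eomes* (chromosome 9, 118478212 to 118486132, plus strand) was at 17.6 and 49.6 CPM in control, 18.2 and 32.2 CPM with Sox11, and 15.3 and 18.1 CPM with Sox11 K91A. The groups overlapped, and within control and Sox11 the higher value came from the library that stood apart. The log2 fold change of *Eomes* was -0.32 with Sox11 (standard error 0.49, adjusted p = 0.675) and, with Sox11 K91A, -0.88 with a standard error of 0.52 (adjusted p = 0.298). The values turned on single libraries. Without Sox11 replicate 1 the value of *Eomes* with Sox11 was 0.066, and without Sox11 replicate 2 it was -0.73. With Sox11 K91A *Eomes* was at -1.58 without control replicate 1 (adjusted p = 0.0338) and at -0.082 without control replicate 2 (adjusted p = 0.909). With Sox11 it was at -1.005 without control replicate 1 (adjusted p = 0.0614) and at 0.49 without control replicate 2 (adjusted p = 0.391). Without both libraries that stood apart it was at 0.055 with Sox11 and -0.080 with Sox11 K91A. An antisense gene, *Gm33460*, covers 118 of the 4155 exon bases of *Eomes* and also has no entry in the tables.

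*Tbx20* (chromosome 9, 24718138 to 24774303, minus strand) was at 1.68 and 5.24 CPM in control, 2.91 and 14.5 CPM with Sox11, and 3.63 and 2.95 CPM with Sox11 K91A. Again control replicate 2 and Sox11 replicate 2 held the highest values, and the groups overlapped. The log2 fold change was 1.12 with Sox11 (standard error 0.85, adjusted p = 0.374) and, with Sox11 K91A, 0.06 with a standard error of 0.93 (adjusted p = 0.974). Without Sox11 replicate 1 the first became 2.19 (adjusted p = 0.0384), and without Sox11 replicate 2 it became -0.10 (adjusted p = 0.95). Without both libraries that stood apart, *Tbx20* was at 0.79 with Sox11 and 0.96 with Sox11 K91A. With a term in the fit for the 2 libraries that stood apart, chosen after seeing the data, *Tbx20* was at 1.30 with Sox11 (adjusted p = 0.0312) and 1.29 with Sox11 K91A (adjusted p = 0.0577). Of 15 other T-box genes listed, 7 were tested and 0 were called with either virus. *Tbr1*, which marks a different set of RGC types, was at 35.5 and 23.7 CPM in control and between 9.74 and 20.9 CPM in the Sox11-virus libraries, with adjusted p = 0.104 for Sox11 and 0.189 for Sox11 K91A.

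*Adcyap1*, which encodes the neuropeptide PACAP that ipRGCs release onto the brain's clock, lies on chromosome 17 (93199017 to 93206537, plus strand). It had 11695 and 14142 counts in control, 1400 and 683 with Sox11, and 749 and 1744 with Sox11 K91A. These are 418.5 and 366.9 CPM in control, 51 and 20.6 CPM with Sox11, and 23.2 and 59.8 CPM with Sox11 K91A. The control libraries were close to each other, and all Sox11-virus libraries lay far below them. In TPM, *Adcyap1* was at 440.2 and 354.2 in the control libraries, beside 4.02 and 7.01 for *Opn4*. Whether the *Adcyap1* transcripts came from ipRGCs was not tested, so their fall cannot be assigned to these cells. *Adcyap1* was 12.3-fold lower with Sox11 (95% confidence interval 5.21 to 29), a log2 fold change of -3.62 (standard error 0.52, adjusted p = 0.0126). With Sox11 K91A it was 10.6-fold lower (95% confidence interval 4.55 to 24.7), a log2 fold change of -3.41 (standard error 0.52, adjusted p = 0.0199). Of all genes tested, 0.864% had as low or lower a log2 fold change with Sox11, and 0.387% with Sox11 K91A. Without Sox11 replicate 2 the call with Sox11 was lost (-2.94, adjusted p = 0.0765). The call with Sox11 K91A was lost without control replicate 2 (-3.50, adjusted p = 0.059) or Sox11 K91A replicate 1 (-2.71, adjusted p = 0.086). Without both libraries that stood apart, *Adcyap1* was at -3.03 with Sox11 and -3.50 with Sox11 K91A.

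**Figure D2:**
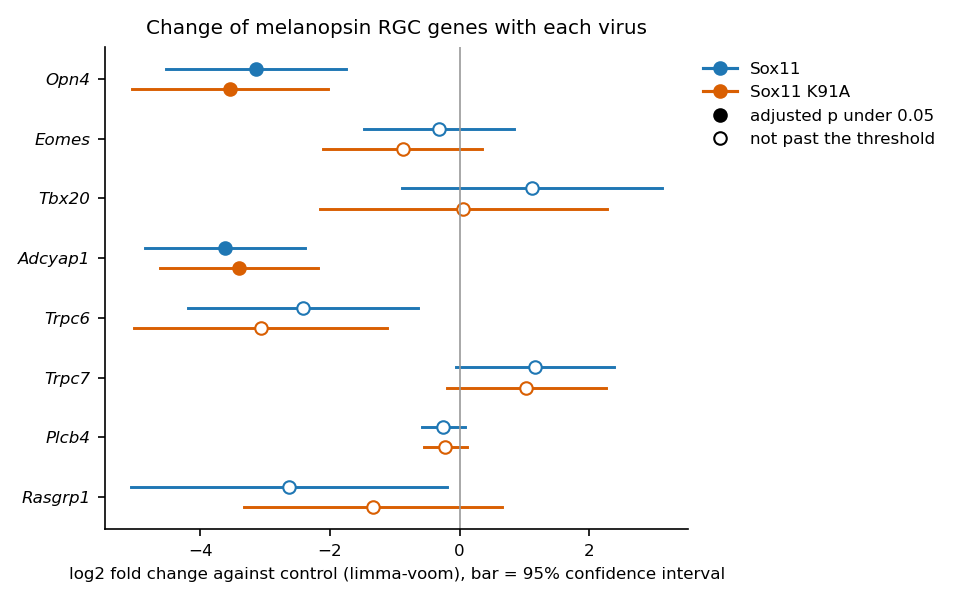
Log2 fold change of each of the 8 genes against control from limma-voom, with 95% confidence intervals as bars, for Sox11 in blue and Sox11 K91A in orange. Filled points, at *Opn4* and *Adcyap1*, have an adjusted p under 0.05, and the intervals of *Trpc6* and, for Sox11, *Rasgrp1* also lie below 0 without passing after adjustment.

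Of 8 genes for PACAP receptors and peptide processing, 7 were tested, and 2 were called lower with each virus, beside 10.2% of all genes lower with Sox11 and 4.81% with Sox11 K91A. They were *Pcsk1*, a protease that cuts prohormones, and *Pam*, the enzyme that amidates peptides. *Pcsk1* was at 132.4 and 79.4 CPM in control and between 21.3 and 40.2 CPM in the Sox11-virus libraries, with a log2 fold change of -1.89 with Sox11 (adjusted p = 0.0174) and -1.59 with Sox11 K91A (adjusted p = 0.0338). *Pam* was at 447.3 and 431.2 CPM in control and between 189.8 and 236.1 CPM in the Sox11-virus libraries (-0.97, adjusted p = 0.014, and -1.05, adjusted p = 0.0193). *Adcyap1r1*, the specific PACAP receptor, lay between 32.9 and 45.5 CPM in all libraries and did not pass the test, nor did *Cpe*, which trims processed peptides (1525 to 2390 CPM). The list's median log2 fold change was -0.97 with Sox11 and -0.30 with Sox11 K91A.

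*Trpc6* and *Trpc7* encode the channels that carry the light response, and neither was called with either virus. *Trpc6* (chromosome 9, 8544142 to 8680741, plus strand) had 48 and 54 counts in control, 5 and 13 with Sox11, and 2 and 13 with Sox11 K91A. These are 1.72 and 1.4 CPM in control, 0.182 and 0.392 CPM with Sox11, and 0.0621 and 0.446 CPM with Sox11 K91A. All Sox11-virus libraries lay below both control libraries, but 2 of them fell under the count level of the low-count filter, which 4 of 6 libraries reached. The log2 fold change was -2.41 with Sox11 (standard error 0.75, adjusted p = 0.062) and, with Sox11 K91A, -3.07 with a standard error of 0.82 (adjusted p = 0.0583). DESeq2 called the difference with Sox11 K91A (-2.64, adjusted p = 0.0477). The fit without both libraries that stood apart gave -3.23, with 1 library left in control. The other 15 of 17 alternatives gave adjusted p-values above the threshold. Leaving out 1 library moved the value with Sox11 K91A between -1.74 (without Sox11 K91A replicate 1, adjusted p = 0.5) and -4.33 (without Sox11 K91A replicate 2, adjusted p = 0.164), and that with Sox11 between -1.94 and -2.95.

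*Trpc7* (chromosome 13, 56773113 to 56895993, minus strand) was at 1.11 and 2.44 CPM in control, 2.84 and 5.1 CPM with Sox11, and 4.38 and 2.81 CPM with Sox11 K91A. Here all Sox11-virus libraries lay above both control libraries, the opposite order to *Trpc6*. The log2 fold change was 1.16 with Sox11 (standard error 0.52, adjusted p = 0.146). With Sox11 K91A it was 1.03 with a standard error of 0.52 (adjusted p = 0.23). Leaving out 1 library moved *Trpc7* between 0.67 and 1.79 with Sox11, and between 0.54 and 1.66 with Sox11 K91A.

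*Plcb4* encodes phospholipase C beta 4, the enzyme that melanopsin acts on through Gq, and lies on chromosome 2 (135659011 to 136014593, plus strand). It was at 130.2 and 115.8 CPM in control, 109.2 and 97.4 CPM with Sox11, and 103.2 and 107.9 CPM with Sox11 K91A. The Sox11-virus libraries lay below both control libraries, with a log2 fold change of -0.25 with Sox11 (standard error 0.14, adjusted p = 0.232) and, with Sox11 K91A, -0.22 with a standard error of 0.14 (adjusted p = 0.336). This gene had the narrowest intervals of the 8.

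*Rasgrp1*, an exchange factor that activates Ras and is expressed in a subset of ipRGCs, lies on chromosome 2 (117279993 to 117343001, minus strand). It was at 62.4 and 19.3 CPM in control, 17.5 and 1.93 CPM with Sox11, and 8.84 and 20.8 CPM with Sox11 K91A. The libraries that stood apart were the lower ones within their groups, and control overlapped with Sox11 K91A. The log2 fold change was -2.63 with Sox11 (standard error 1.03, adjusted p = 0.11) and, with Sox11 K91A, -1.33 with a standard error of 0.84 (adjusted p = 0.331). Leaving out 1 library moved *Rasgrp1* with Sox11 between -0.95 (without Sox11 replicate 2, adjusted p = 0.56) and -4.13 (without Sox11 replicate 1, adjusted p = 0.0802), and with Sox11 K91A between -0.53 (without control replicate 1, adjusted p = 0.686) and -2.23 (without control replicate 2, adjusted p = 0.132). With a term for the 2 libraries that stood apart, chosen after seeing the data, both passed the threshold, at -2.28 (adjusted p = 0.0157) and -2.37 (adjusted p = 0.022). Without those libraries the values were -1.83 with Sox11 and -2.22 with Sox11 K91A. Of the other 3 RasGRP genes, *Rasgrp2*, which acts mainly on Rap, was lower with both viruses. It was at 37.9 and 33.7 CPM in control and between 6.55 and 15.1 CPM in the Sox11-virus libraries, with log2 fold changes of -1.92 (adjusted p = 0.0146) and -1.37 (adjusted p = 0.0347).

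The groups did not overlap for 6 of the 8 genes with Sox11, 5 lower and 1 higher, and for 5 with Sox11 K91A, 4 lower and 1 higher. Among all genes tested, 30.6% were lower without overlap and 30.9% higher with Sox11, and 30.7% and 31.2% with Sox11 K91A.

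Between Sox11 K91A and Sox11, 0 of the 8 genes were called, and 0 genes of all tested (0% of 15747) by limma-voom or edgeR, against 2 by DESeq2. At an unadjusted p under 0.05 there were 108 genes and 0 of the 8 in limma-voom. The log2 difference of Sox11 K91A minus Sox11 was -0.40 for *Opn4* (95% confidence interval -2.27 to 1.47) and 0.22 for *Adcyap1* (95% confidence interval -1.03 to 1.46). For *Rasgrp1* it was 1.30 (95% confidence interval -1.33 to 3.93) and for *Tbx20* -1.06 (95% confidence interval -3.06 to 0.94). *Plcb4*, the most precisely measured member, differed by 0.03 (95% confidence interval -0.30 to 0.36). *Eomes* was the single member whose Sox11 K91A libraries lay wholly below the Sox11 libraries (-0.56, 95% confidence interval -1.82 to 0.70), where 13.4% of all genes did so.

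*Eomes* is expressed across ipRGC types, and counts of 5 other members were set against it within each library as a description. *Trpc7* and *Plcb4* were not set against it. *Eomes* itself was at 17.6 and 49.6 CPM in control, so its spread enters each ratio. *Adcyap1*, for instance, was at 418.5 and 366.9 CPM in the same libraries. Per 100 *Eomes* counts, *Opn4* had 23.2 and 15.8 counts in control, 5 and 1.5 with Sox11, and 3.05 and 2.84 with Sox11 K91A. *Adcyap1* had 2382 and 740.4 counts per 100 *Eomes* counts in control, 280 and 64.1 with Sox11, and 152.2 and 330.3 with Sox11 K91A. Both genes were thus lower relative to *Eomes* in every Sox11-virus library than in either control library. *Tbx20* went the other way, with 9.57 and 10.6 counts in control, 16 and 45.2 with Sox11, and 23.8 and 16.3 with Sox11 K91A. *Rasgrp1* per *Eomes* count overlapped between control and both viruses, and *Trpc6* stayed below both control libraries, at 2.46 in Sox11 K91A replicate 2 beside 2.83 in control replicate 2.

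**Figure D3:**
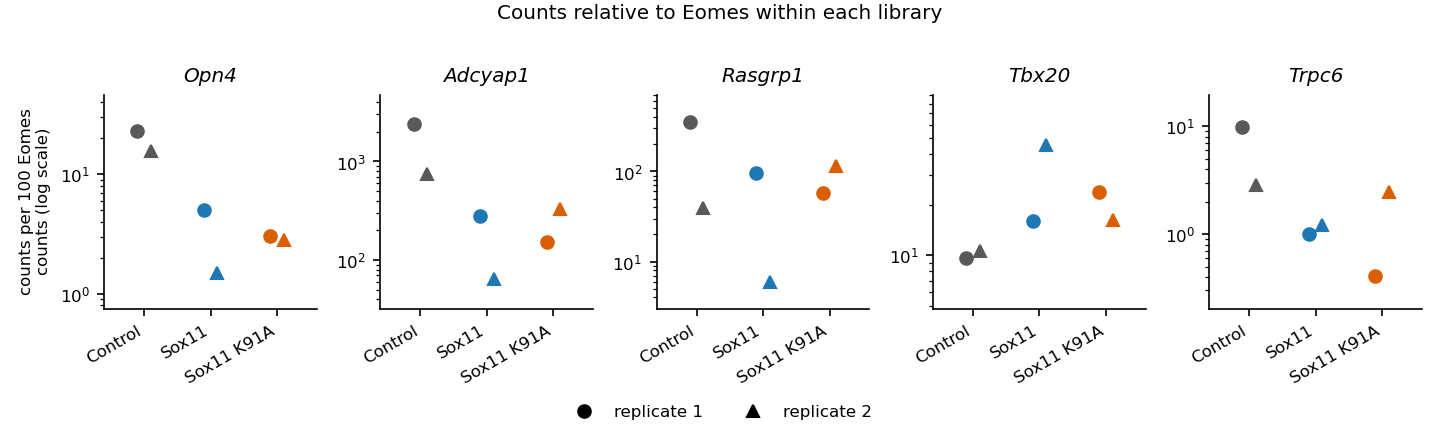
Counts of 5 genes per 100 *Eomes* counts in each library, on a log axis, with circles for replicate 1 and triangles for replicate 2. *Opn4* and *Adcyap1* lie lower and *Tbx20* higher in all 4 Sox11-virus libraries than in both control libraries, while *Rasgrp1* overlaps.

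Of 20 other genes listed for the melanopsin signalling cascade, 19 were tested. The list was named by symbol, and the values do not show whether these transcripts came from cells with melanopsin. With Sox11, 6 were called lower and 1 higher, and with Sox11 K91A 3 were called lower and 0 higher. Of all genes tested, 10.2% were called lower and 9.96% higher with Sox11, and 4.81% and 5.81% with Sox11 K91A. The list had medians of -0.49 and -0.32 on the log2 scale. *Prkca* and *Prkcb*, protein kinase C isoforms that act after phospholipase C, fell with both viruses. *Prkcb* was at 96.3 and 107.7 CPM in control and between 29.5 and 54.1 CPM in the Sox11-virus libraries (-1.46, adjusted p = 0.0157, and -1.13, adjusted p = 0.0357). *Prkca* was at 106.8 and 89 CPM in control and between 39.3 and 60.7 CPM in the Sox11-virus libraries (-1.08, adjusted p = 0.0202, and -0.84, adjusted p = 0.0488). *Grk2*, a kinase that turns off activated receptors, also fell with both viruses (-0.78, adjusted p = 0.0224, and -0.64, adjusted p = 0.0492).

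Past the threshold with Sox11 but not with Sox11 K91A were the arrestins *Arrb1* (-0.68, adjusted p = 0.0441) and *Arrb2* (-0.69, adjusted p = 0.0316), which bind phosphorylated receptors, and the calcium release channel *Itpr3* (-1.99, adjusted p = 0.0288). *Gnaq*, the alpha subunit of Gq, was the gene called higher with Sox11, at 213.9 and 220.2 CPM in control and 302.2 and 349.9 CPM with Sox11 (0.58, adjusted p = 0.0363). With Sox11 K91A these 4 genes had adjusted p-values of 0.104, 0.0611, 0.0729 and 0.0894, and no gene passed the test between the viruses in limma-voom. The channel gene *Trpc4*, a low gene of at most 1.3 CPM, did not pass the test, at 2.26 with Sox11 (adjusted p = 0.0835).

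**Figure D4:**
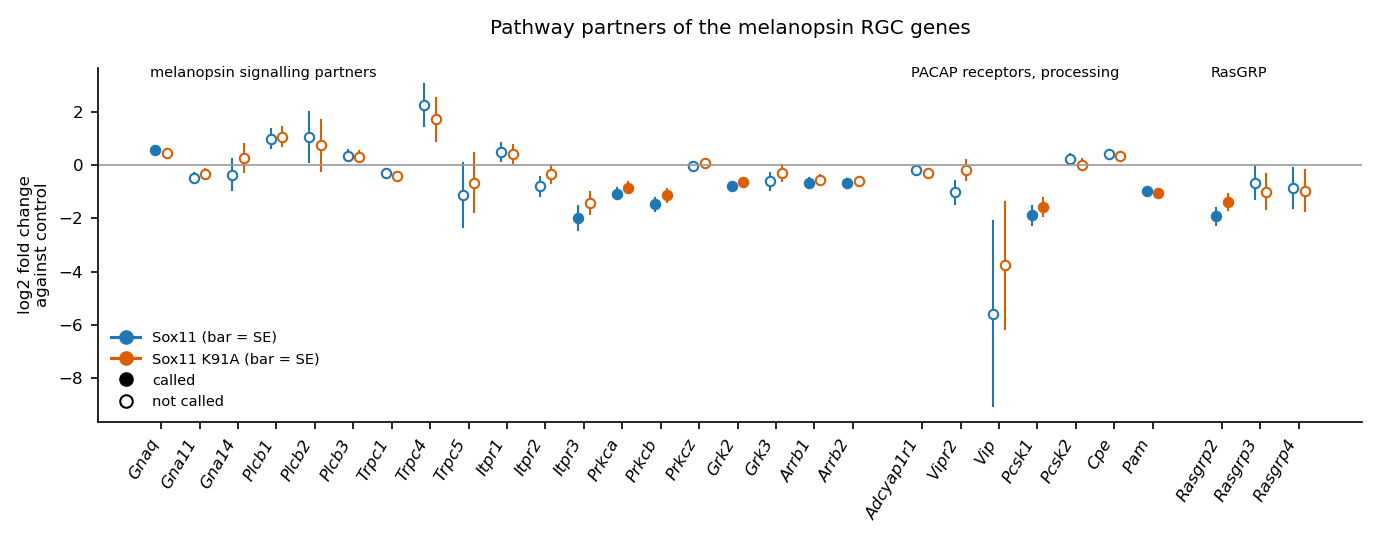
Log2 fold change against control of genes of melanopsin signalling, PACAP receptors and processing, and the RasGRP family, with standard errors as bars, for Sox11 in blue and Sox11 K91A in orange. Filled points passed the threshold, and most of them, *Prkca*, *Prkcb*, *Grk2*, *Pcsk1*, *Pam* and *Rasgrp2* among them, lie below 0, with *Gnaq* above.

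The genes whose pattern over the 6 libraries was most like that of *Opn4*, by Pearson correlation of log2 CPM among 13377 genes with a mean of at least 1 CPM, were *Micu3* (r = 0.9996), *Galns* (r = 0.9978), *5033430I15Rik* (r = 0.9973), *Iscu* (r = 0.9973) and *Bmyc* (r = 0.9967). With 2 control libraries high and 4 Sox11-virus libraries low, the correlation mostly reflects the difference between groups and carries no test. These genes changed less than *Opn4*. *Galns* was at 8.7 and 11.2 CPM in control and between 4.56 and 5.61 CPM in the Sox11-virus libraries, with log2 fold changes of -0.96 and -1.07. Of the 6 other members above that level, which leaves out *Trpc6*, *Adcyap1* was the most like *Opn4* (r = 0.945, rank 604), followed by *Plcb4* (r = 0.795), while *Trpc7* ran against it (r = -0.717).

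Markers of RGCs and of other retinal cells moved with the groups in part. Of 9 RGC markers, 3 were called lower with Sox11 (*Slc17a6*, *Thy1* and *Nefl*) and 1 with Sox11 K91A (*Slc17a6*). *Rbpms*, *Isl1*, *Pou4f1* and *Pou4f2* did not pass the test. For the counts of markers called here, the share of all genes tested called lower was 10.2% with Sox11 and 4.81% with Sox11 K91A. *Thy1*, which encodes the CD90 antigen used for purification, was at 725.1 and 689.1 CPM in control, 258.8 and 46.3 CPM with Sox11, and 154.4 and 312.3 CPM with Sox11 K91A. The 9 RGC markers summed to 10300 and 9546 CPM in control, 6559 and 3998 CPM with Sox11, and 5268 and 6863 CPM with Sox11 K91A. Most of this sum was *Nefl*, at 7086 and 6345 CPM in control and between 2188 and 4328 CPM in the Sox11-virus libraries. The median log2 fold change of the 9 markers was -0.182 with Sox11 and -0.155 with Sox11 K91A. The 7 amacrine markers summed to 233.2 and 95.9 CPM in control and between 37.9 and 112.8 CPM in the Sox11-virus libraries, with 1 of 7, *Slc6a9*, called lower with both viruses. *Gad2* made up much of that sum (139.6 and 71.5 CPM in control, 20.6 to 52.6 CPM in the Sox11-virus libraries), while the list's median log2 fold change was 0.22 with Sox11 and 1.25 with Sox11 K91A. *Tfap2b*, for instance, was at 1.15 (adjusted p = 0.353) and 2.13 (adjusted p = 0.118). Within control and Sox11 the amacrine gene *Gad1* was low in the libraries that stood apart, at 2.83 CPM in control replicate 2 and 2.23 CPM in Sox11 replicate 2, against 17.2 to 36.2 CPM in the other 4 libraries. The 6 photoreceptor markers summed to at most 3.53 CPM with *Rcvrn* at 0 in every library, the 4 bipolar markers to at most 1.99 CPM with *Vsx1* at 0, and *Gfap*, of astrocytes, was at 0. The 5 microglial markers summed to at most 1.22 CPM and the 5 markers of endothelium and pericytes to at most 3.8 CPM. Among these low genes, the photoreceptor gene *Pde6b* was called lower with Sox11 (-4.68, adjusted p = 0.0396). It was at 1.93 and 1.79 CPM in control and 0.4 and 0 CPM with Sox11. The endothelial gene *Pecam1* was called higher with Sox11 K91A (2.03, adjusted p = 0.0468). It was at 0.501 and 0.389 CPM in control and 2.23 and 1.48 CPM with Sox11 K91A. Neither passed the test with the other virus. Of the 5 Müller glia and progenitor markers, *Glul* was higher with both viruses (1.49, adjusted p = 0.0083, and 1.51, adjusted p = 0.0094), from 104.9 and 97.2 CPM in control to between 267 and 310.2 CPM, and it carried most of the rise in their sum (237.2 and 293.2 CPM in control, 477 to 505.8 CPM in the Sox11-virus libraries). *Rlbp1* (-2.51, adjusted p = 0.0901, and -2.70, adjusted p = 0.103) and *Slc1a3* (-2.13, adjusted p = 0.152, and -1.10, adjusted p = 0.411), of the same list, had values in the other direction that did not pass the test. The part of these shifts in the members' values was not tested.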

How the data were processed

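The authors' pipeline used STAR for alignment to mm10 and RSEM for counting, in versions not given in the sources used here. They deposited 1 table per library, with expected counts that were not normalized and not all whole, and with TPM values and effective lengths per gene, both scaled or estimated by RSEM. The tables listed 69690 entries, and the 26344 entries that are not Ensembl genes held 1 count in all and were left out. Symbols and coordinates came from GENCODE M21 (GRCm38). It gave a symbol to 42462 of 43346 genes, and promoter windows came from RefSeq. RSEM's posterior SD of the count was 0 for all 8 members in every library, so none shared ambiguous reads with another gene that was counted. Genes without an entry, such as *Gm49012* and *Gm33460*, could not be judged this way.

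Expected counts were rounded and filtered with filterByExpr of edgeR (version 4.0.16) with a minimum count of 10. TMM factors lay between 0.985 and 1.04, and CPM values use the scaled library sizes. All 6 libraries were fitted without a covariate in limma-voom (limma 3.58.1 under R 4.3.3), with two-sided tests and Benjamini-Hochberg adjustment over the 15747 genes tested. Adjusted p-values are from this fit unless another tool is named. Fitted values were checked on simulated counts with known changes. Counting error alone limits low genes, and with 2 replicates per group the spread is known poorly.

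The genes named are the 8 members, the called genes of each list, the defining markers, and the 5 genes most correlated with *Opn4*. *Opn3*, *Opn5*, *Tbr1*, *Adcyap1r1*, *Cpe*, *Rlbp1*, *Slc1a3*, *Trpc4* and *Vip* were named beyond this rule, after their values were seen. One gene was left out of the melanopsin signalling list and is not reported here. The members and lists were chosen with earlier results of these data known. Alternatives were DESeq2 (version 1.42.0), the quasi-likelihood test of edgeR, quality weights per sample, other scalings, filters and fold change thresholds, a fit of only the 2 groups compared, a replicate block, counts without rounding, and leaving out each library. Leaving out both libraries that stood apart, a term for them and a block with exchanged numbers were added after seeing the data. A left-out library leaves 1 sample in its group, which is then assumed to vary like the other groups. Without both libraries that stood apart, control and Sox11 kept 1 library each. The spread within groups then came from the Sox11 K91A libraries alone. Figures were drawn with matplotlib (version 3.10.9) in Python 3.11.15.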

Additional observations from a re-analysis of the deposited data

How the results depend on the processing

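Of 437 log2 fold changes of members under alternatives, 394 kept their direction and side of the threshold, 7 lost and 8 gained a call, and 28 changed sign. Most of the 437 were of differences that had not been called and so could not lose a call. All 7 losses were of *Opn4* or *Adcyap1* against control, each when a single library was left out. *Opn4* and *Adcyap1* stayed lower with both viruses in every alternative, between -3.57 and -2.14 and between -4.26 and -2.94 with Sox11, and between -3.96 and -3.02 and between -4.08 and -2.71 with Sox11 K91A. The low counts of *Trpc6*, 2 to 54 per library, limit the precision of its values. *Trpc6* could not be fitted where at least 10 counts were required in every library. The causes of the changes below were not tested.

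Leaving out 1 library at a time, the genes called ranged from 0 to 3753 with Sox11 and from 0 to 2563 with Sox11 K91A, and the members called from 0 to 3 with each virus. The 0 with Sox11 came without Sox11 replicate 2 (3347 genes at an unadjusted p under 0.05). The 0 genes with Sox11 K91A came without control replicate 2 (4753 at an unadjusted p under 0.05). DESeq2 called 3144 genes with Sox11 K91A and 2 between the viruses, sample quality weights left 979 genes with Sox11, and the fit of only the 2 groups compared left 1598. Without both libraries that stood apart, 2094 genes were called with Sox11 and 4108 with Sox11 K91A, with 4 members in the latter (*Adcyap1*, *Opn4*, *Rasgrp1* and *Trpc6*). The term for these libraries gave 2894 genes with Sox11 K91A. With Sox11 it gave 4 members (*Adcyap1*, *Opn4*, *Rasgrp1* and *Tbx20*), and the count of all genes called there is not given here. The member counts of these fits were not set against a share of all genes.

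The replicate numbers gave no pairing shared by all 3 groups. The correlation of deviations from the group means was 0.259 for control with Sox11, -0.045 for control with Sox11 K91A, and -0.282 for the viruses with each other. With the replicate block, 2679 genes were called with Sox11, 1402 with Sox11 K91A and 0 between the viruses, with 2, 2 and 0 members, and no member's call changed. With the 2 Sox11 K91A numbers swapped in the block, chosen after seeing the data, 0 genes and 0 members were called between the viruses.

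Sign changes were among differences that did not pass the test. Leaving out 1 library, or both that stood apart, *Eomes* ranged from -1.005 to 0.49 and *Tbx20* from -0.10 to 2.19 for Sox11 against control, and *Tbx20* from -0.67 to 0.96 for Sox11 K91A against control. For Sox11 K91A against Sox11 the ranges were -0.88 to 0.033 for *Opn4*, -0.47 to 0.91 for *Adcyap1*, -2.13 to 0.17 for *Tbx20*, -1.91 to 0.66 for *Trpc6*, -0.51 to 0.31 for *Trpc7*, -0.049 to 0.13 for *Plcb4* and -0.39 to 2.80 for *Rasgrp1*. *Tbx20* with Sox11 K91A against control was at -0.083 with edgeR, -0.082 with DESeq2 and -0.099 with the replicate block. With the term for the libraries that stood apart, Sox11 K91A minus Sox11 was -0.18 for *Adcyap1*, 0.085 for *Eomes*, -0.050 for *Plcb4*, -0.093 for *Rasgrp1* and 0.38 for *Trpc7*.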

Other observations

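*Vip*, a peptide gene of the same family as *Adcyap1*, had 87.6 and 4.59 CPM in control, 2.22 and 0.0603 CPM with Sox11, and 0.403 and 4.39 CPM with Sox11 K91A. All Sox11-virus libraries lay below both control libraries, but the control libraries themselves were far apart, and the gene did not pass the test in limma-voom (adjusted p = 0.282 and 0.331). The effective length that RSEM assigned to *Plcb4*, which depends on the mix of its transcripts, was 3352 and 3015 bases in control, 3505 and 3641 bases with Sox11, and 3469 and 3384 bases with Sox11 K91A, lower in both control libraries than in all 4 Sox11-virus libraries.

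Of the 7 amacrine markers, *Gad1*, *Tfap2a*, *Tfap2b*, *Slc32a1* and *Chat* were lower in control replicate 2 and Sox11 replicate 2 than in each of the other 4 libraries, and *Gad2* and *Slc6a9* were not. In control replicate 2, *Gad2* (71.5 CPM) and *Slc6a9* (17.5 CPM) exceeded all 4 Sox11-virus libraries. Of the 5 Müller glia and progenitor markers, *Sox2* was lower in these 2 libraries, at 0.623 and 2.59 CPM against 7.17 to 11.6 CPM elsewhere, while *Vim* (190.6 CPM) and *Rlbp1* (3.74 CPM) in control replicate 2 exceeded control replicate 1 (122.6 and 1.15 CPM). The same 2 libraries had the highest *Eomes* and *Tbx20* levels of all 6, and the lower *Rasgrp1* level within their groups.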
